A study of Mus musculus with 6 samples.

Results

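Mitophagy receptors are the proteins that mark a mitochondrion for removal by autophagy. The set described here holds 8 genes, Bnip3, Bnip3l, Fundc1, Pink1, Phb2, Bcl2l13, Fkbp8 and Optn, taken by symbol from tables of 21741 distinct gene symbols. All 8 were found, and all 8 passed the filter on low counts that left 12790 genes for testing. RNA was sequenced from mouse primary cardiomyocytes, heart muscle cells cultured from heart tissue, in 6 libraries. The control group of 3 libraries received the adenovirus Adv-NC and was labelled wild type, and the other group of 3 received Adv-ABHD11 and was labelled as overexpressing ABHD11. Every culture then spent 24 h in hypoxia, and normoxic cells were not analysed here. ABHD11 is a mitochondrial hydrolase. The sources used here did not give the promoter in the virus, the mouse strain or the age of the animals. They also did not say whether replicates were separate cultures, so the spread behind each p-value may be technical.

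Mitochondria are handed to the autophagosome by proteins that bind its ATG8 coat proteins, such as LC3. Receptors such as BNIP3, BNIP3L (also called NIX) and FUNDC1 sit in the outer membrane and bind LC3 directly; they are the receptors best known from hypoxia, and BNIP3 and BNIP3L are textbook targets of the hypoxia-inducible transcription factor HIF-1. In the other route, the kinase PINK1 builds up on damaged mitochondria and leads to ubiquitin being attached to their surface, and adaptors such as optineurin (OPTN) then link the ubiquitin to LC3. In heart muscle, which is dense in mitochondria, both routes take part in mitochondrial turnover.

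The DNA upstream of 3 of the genes is shown with the short core that HIF binds. These genes were chosen by their results: Bnip3 had the largest increase, Pink1 did not pass the test, and Optn was lower. Whether the matches have a part in the mRNA levels was not tested. Each run is the 250 bases before the start in RefSeq, build GRCm38.p6, 5′ to 3′ on the strand of the gene, with matches to ACGTG or GCGTG on either strand in capitals. They come from chr7:138909507-138909756 (minus strand) for Bnip3, chr4:138326297-138326546 (minus strand) for Pink1 and chr2:5064118-5064367 (minus strand) for Optn.
Bnip3: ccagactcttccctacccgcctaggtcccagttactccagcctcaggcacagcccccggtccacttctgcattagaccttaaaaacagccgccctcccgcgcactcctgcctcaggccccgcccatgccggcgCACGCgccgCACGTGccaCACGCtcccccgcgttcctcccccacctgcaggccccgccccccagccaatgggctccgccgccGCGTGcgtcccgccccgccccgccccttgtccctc
Pink1: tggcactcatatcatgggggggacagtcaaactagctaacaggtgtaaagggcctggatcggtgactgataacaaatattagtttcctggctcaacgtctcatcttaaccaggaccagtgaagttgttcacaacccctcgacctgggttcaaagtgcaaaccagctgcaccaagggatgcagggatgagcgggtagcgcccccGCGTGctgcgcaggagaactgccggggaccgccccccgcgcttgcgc
Optn: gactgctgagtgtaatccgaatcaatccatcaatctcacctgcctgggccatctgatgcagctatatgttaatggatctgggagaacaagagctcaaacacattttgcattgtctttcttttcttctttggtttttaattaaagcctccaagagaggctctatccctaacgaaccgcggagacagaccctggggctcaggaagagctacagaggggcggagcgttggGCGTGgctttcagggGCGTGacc
The search covered each whole 300-base window, 250 bases before the start and 50 after it. The Bnip3 window held 5 matches, all before the start, of which 2 are the same 6 letters CACGTG read from either strand. Of 32544 distinct mouse windows of that length, 44.0% held at least 1 match and 1.67% at least 5. The letters are rich in G and C, and so was the Bnip3 window, at 71.7% against a median of 53.0%. Pink1 had 1 match, at bases 204 to 208 of its window, and Optn had 3, of which 1 lay after the RefSeq start. The start of Optn in GENCODE M21 lies 66 bases further downstream, so its whole window is upstream of that start.

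Matches and the direction of the mRNA are set side by side for the 7 genes with a window, and a link was not tested. Bnip3 had the most matches, at 5, and the largest increase. Pink1 had 1 match and did not pass the test. Optn was lower in the Adv-ABHD11 libraries and its window was among the 8.99% with at least 3 matches. Fkbp8 had 2 matches and did not pass the test. Phb2 and Bcl2l13 had 1 each, and Phb2 was lower whereas Bcl2l13 was higher. Fundc1 was higher and its RefSeq window held none, but that window begins downstream of the gene's start in GENCODE M21. It so lies inside the gene. Bnip3l had no entry in the table, which matched 7 of the 8 genes. A match is a run of letters and not a measured binding site.

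The receptors known from hypoxia were all higher in the Adv-ABHD11 libraries, Bnip3 by far the most. Of the PINK1 route, Pink1 did not pass the test and Optn was lower. The remaining receptors were split between higher, lower and not passed. In CPM, counts scaled to a common library total by TMM, and tested with the edgeR quasi-likelihood test at an adjusted p under 0.05, 4 of the 8 genes were higher, 2 lower and 2 did not pass. The background was high: 59.3% of all tested genes were called, 29.9% as higher and 29.5% as lower, so 6 calls among 8 genes is near it. The groups did not overlap for those same 6 genes, as they did not for 63.2% of all tested genes. The median log2 fold change was 0.199 over the 8 genes and 0.0164 over all tested genes.

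**Figure D1:**
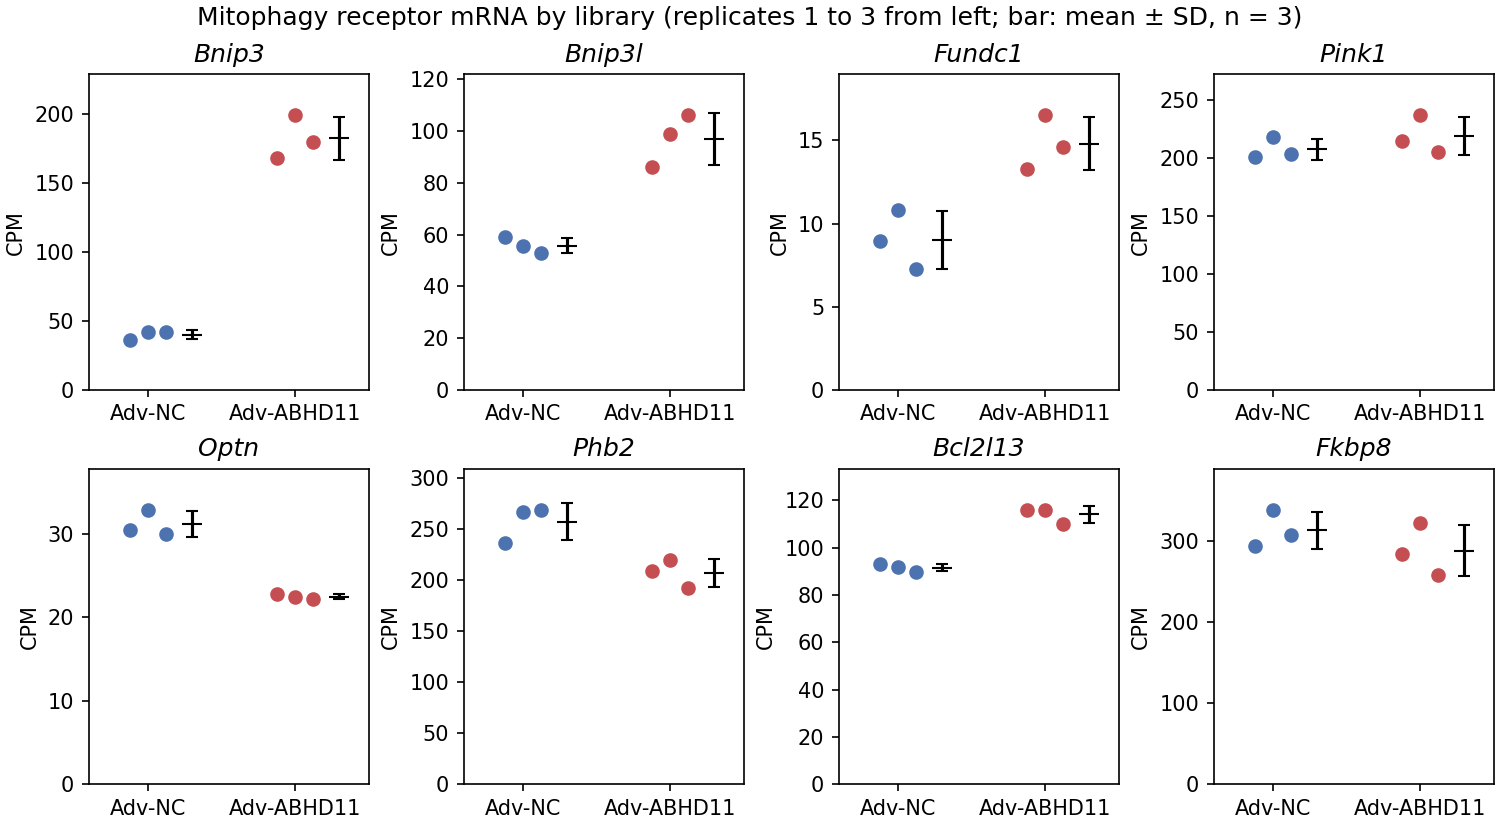
CPM of each mitophagy receptor (y axis, from 0) in each of the 3 Adv-NC (blue) and 3 Adv-ABHD11 (red) libraries, with the mean ± SD of each group in black. Bnip3 runs from 36.3 to 42.0 CPM with Adv-NC and from 168 to 199 CPM with Adv-ABHD11, whereas the groups overlap for Pink1 and Fkbp8.

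Bnip3, a BH3-only relative of BCL2 (ENSMUSG00000078566.8, protein-coding, chromosome 7, 138890836 to 138909519, minus strand, GRCm38), stood at 36.3, 41.8 and 42.0 CPM in Adv-NC replicates 1 to 3. It stood at 168, 199 and 180 CPM in the Adv-ABHD11 libraries, from 2810 to 3650 counts each. Every Adv-ABHD11 library was far above every Adv-NC library. The level rose 4.55-fold, with a 95% interval of 3.94 to 5.25 (log2 fold change 2.19 ± 0.0982 SE, n = 3 each, edgeR adjusted p = 3.81e-12). It was the only receptor of the 8 to rise at least 2-fold, as did 8.09% of all tested genes, and 162 tested genes had a larger increase. The gene overlaps an antisense transcript, Gm45507, and the pseudogene Gm18258 on the opposite strand, and whether the counting used strand was not given.

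Bnip3l, the paralog of Bnip3 that clears mitochondria from maturing red blood cells (ENSMUSG00000022051.15, chromosome 14, 66985239 to 67008877, minus strand), was at 58.9, 55.6 and 52.8 CPM with Adv-NC. With Adv-ABHD11 it was at 86.0, 98.9 and 106 CPM, so the groups did not overlap. It rose 1.74-fold (interval 1.51 to 2.00, log2 fold change 0.80 ± 0.0958, edgeR adjusted p = 1.35e-06). A processed pseudogene, Bnip3l-ps, is annotated elsewhere in the genome, and reads that fit both genes have an uncertain split. Red blood cell transcripts, summed over 5 markers, were at 0.313 to 0.647 CPM with Adv-NC and 22.8 to 25.9 CPM with Adv-ABHD11, with Hba-a1 and Alas2 at 0 counts with Adv-NC. Their part in the Bnip3l value was not tested.

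In counts, the balance between the paralogs moved towards Bnip3. Adv-NC libraries held 0.615, 0.752 and 0.795 Bnip3 counts for each Bnip3l count, and Adv-ABHD11 libraries held 1.95, 2.01 and 1.70. The ratio was thus 2.63 times as high with Adv-ABHD11, and no library of either group came near the other group. Such a ratio is taken within a library and does not depend on how libraries are scaled. It is not corrected for gene length. Per kb of protein-coding exon, Bnip3 was above Bnip3l in both groups. The means were 21.6 against 17.0 CPM per kb with Adv-NC and 98.2 against 29.6 with Adv-ABHD11.

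Fundc1, an outer-membrane receptor whose binding to LC3 is set by phosphorylation (ENSMUSG00000025040.13, chromosome X, 17556564 to 17572325, minus strand), was the least abundant of the 8. It was at 8.96, 10.8 and 7.29 CPM with Adv-NC and at 13.3, 16.5 and 14.6 CPM with Adv-ABHD11, from 142 to 298 counts per library. The groups did not overlap, although its SD was 19.5% of the mean with Adv-NC, the widest spread among the 8 genes. It rose 1.64-fold (interval 1.31 to 2.06, log2 fold change 0.71 ± 0.155, edgeR adjusted p = 0.000692).

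Pink1, the kinase that starts the ubiquitin route (ENSMUSG00000028756.12, chromosome 4, 138313409 to 138326307, minus strand), was at 201, 218 and 204 CPM with Adv-NC. It was at 215, 237 and 205 CPM with Adv-ABHD11, and the groups overlapped. The difference was 1.05-fold with a 95% interval of 0.929 to 1.20, which did not pass the test (edgeR adjusted p = 0.462). Each library held 3602 to 4287 counts of it.

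Optn, the ubiquitin-binding adaptor optineurin (ENSMUSG00000026672.11, chromosome 2, 5020642 to 5064051, minus strand), was at 30.5, 32.9 and 30.0 CPM with Adv-NC and at 22.8, 22.4 and 22.2 CPM with Adv-ABHD11. All Adv-ABHD11 libraries were below all Adv-NC libraries. It fell 1.38-fold (interval 1.20 to 1.6, log2 fold change -0.47 ± 0.101, edgeR adjusted p = 0.000624). An antisense transcript, 4930551O13Rik, overlaps the gene on the opposite strand.

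**Figure D2:**
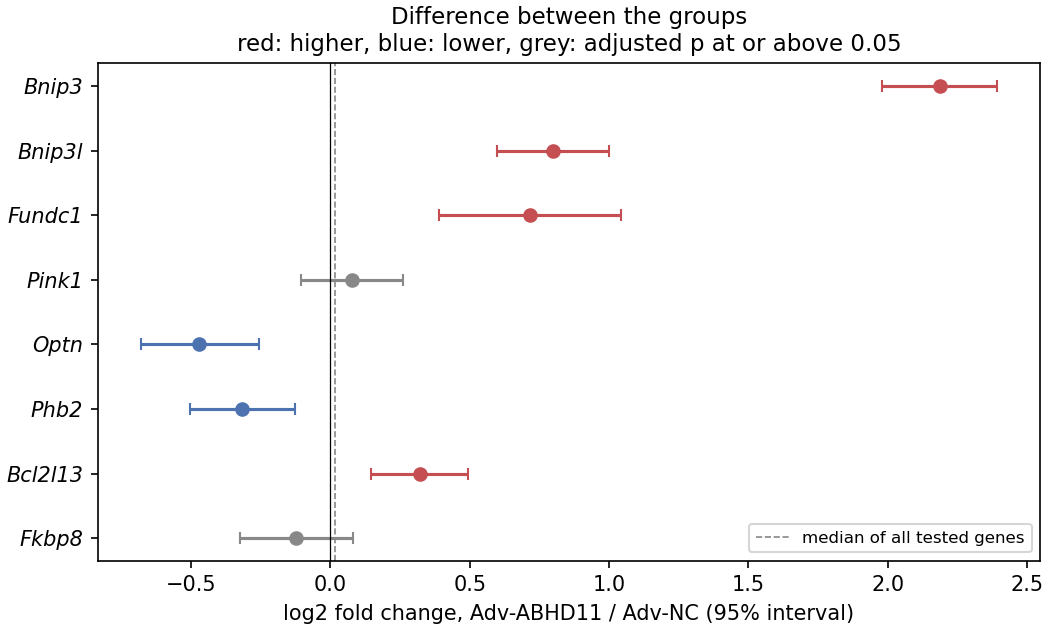
Log2 fold change of each gene between Adv-ABHD11 and Adv-NC (x axis) with its 95% interval from the edgeR fit, red for higher, blue for lower and grey for not past the test. Bnip3 at 2.19 stands apart from the other genes, which lie between -0.47 and 0.80.

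Among the other receptors, Phb2, an inner-membrane prohibitin that is exposed to LC3 when the outer membrane breaks (ENSMUSG00000004264.17, chromosome 6, 124712336 to 124716950, plus strand), was lower. It was at 236, 267 and 269 CPM with Adv-NC and at 209, 220 and 192 CPM with Adv-ABHD11, without overlap. It fell 1.24-fold (interval 1.09 to 1.42, edgeR adjusted p = 0.00585). Its partner prohibitin, Phb, was at 537 ± 38.8 and 571 ± 51.5 CPM (mean ± SD, n = 3, edgeR adjusted p = 0.437).

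Bcl2l13, a functional counterpart of the yeast receptor Atg32 (ENSMUSG00000009112.4, chromosome 6, 120836212 to 120892842, plus strand), was at 92.9, 91.8 and 89.8 CPM with Adv-NC. With Adv-ABHD11 it was at 116, 116 and 110 CPM, each above all Adv-NC libraries. It rose 1.25-fold (interval 1.11 to 1.41, edgeR adjusted p = 0.00277). The gene overlaps Bid on the opposite strand, which moved the other way, from 17.5 to 5.4 CPM (edgeR adjusted p = 3.12e-08).

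Fkbp8, an outer-membrane immunophilin that binds LC3 and BCL2 (ENSMUSG00000019428.16, chromosome 8, 70527724 to 70535328, plus strand), was at 293, 338 and 307 CPM with Adv-NC and at 284, 321 and 258 CPM with Adv-ABHD11. The groups overlapped, and the difference of 0.919-fold (interval 0.798 to 1.06) did not pass the test (edgeR adjusted p = 0.289). It overlaps Kxd1 on the opposite strand, which was at 59.7 and 79.6 CPM (edgeR adjusted p = 0.000691).

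Set against Pink1 within each library, the receptors known from hypoxia took a larger place. For each Pink1 count the Adv-NC libraries held 0.181, 0.192 and 0.205 Bnip3 counts and the Adv-ABHD11 libraries 0.780, 0.839 and 0.874, a ratio 4.32 times as high. The ratio of Bnip3l to Pink1 was 1.64 times as high with Adv-ABHD11 and that of Fundc1 to Pink1 1.57 times as high, both without overlap of the groups. That was not particular to these receptors. The groups did not overlap for the ratios of Optn, Phb2, Bcl2l13 and Fkbp8 to Pink1 either, and the share over all genes was not computed. Within the PINK1 route, Optn went from 0.147 to 0.152 counts per Pink1 count with Adv-NC to 0.0945 to 0.108 with Adv-ABHD11. Among the 8 genes, the ratio of Bnip3 to Optn across the routes was at 1.19, 1.27 and 1.40 with Adv-NC against 7.36, 8.88 and 8.08 with Adv-ABHD11, 6.30 times as high. These ratios are a description of genes chosen with earlier results known and carry no test.

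**Figure D3:**
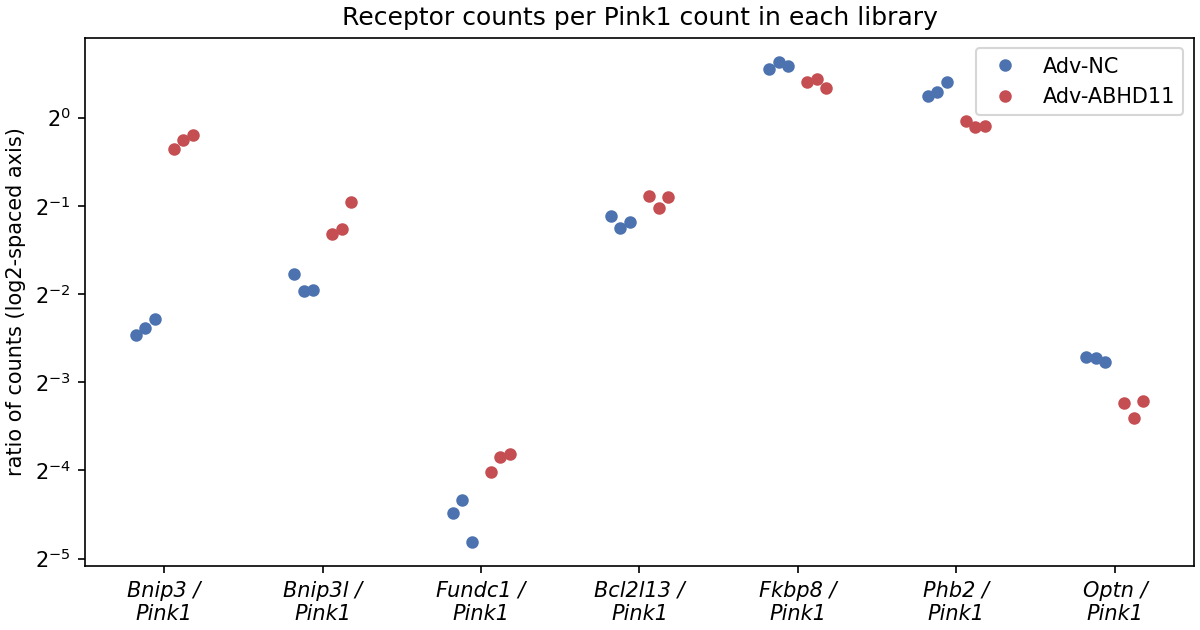
Counts of each receptor for each Pink1 count (y axis, spaced by powers of 2) in the 3 Adv-NC (blue) and 3 Adv-ABHD11 (red) libraries. Bnip3, Bnip3l, Fundc1 and Bcl2l13 sit higher against Pink1 in the Adv-ABHD11 libraries, and Fkbp8, Phb2 and Optn lower.

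Levels between genes were compared as CPM per kb of protein-coding exon. With Adv-NC the order was Phb2 at 192 CPM per kb, Fkbp8 at 132, Pink1 at 77.8, Bnip3 at 21.6, Bnip3l at 17.0, Bcl2l13 at 13.2, Optn at 11.9 and Fundc1 at 3.91. With Adv-ABHD11 Bnip3 stood at 98.2 CPM per kb, above Pink1 at 82.0. On that scale the Bnip3 libraries ran from 90.6 upwards and those of Pink1 up to 88.7, so the neighbours were separated only narrowly. Phb2 and Fkbp8 changed places in the Adv-ABHD11 group when the longest transcript was used as the length, at 157 and 160 CPM per kb. In level per kb among tested genes, Bnip3 was at percentile 77.3 with Adv-NC and 94.7 with Adv-ABHD11, Pink1 at 92.5 and 93.7, and Fundc1 at 43.1 and 53.5.

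Bnip3 made up 4.44% to 4.78% of the summed CPM per kb of the 8 genes with Adv-NC and 18.0% to 19.9% with Adv-ABHD11. By this length Phb2 held the largest share in every library, at 39.8% to 42.3% and then 29.3% to 30.9%. With the longest transcript as the length, the Adv-ABHD11 mean of Fkbp8 was above that of Phb2, at 160 against 157 CPM per kb. Pink1 held 16.1% to 17.0% and then 15.7% to 15.9%. As the shares add to a fixed total, the larger share of Bnip3 lowers the others.

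**Figure D4:**
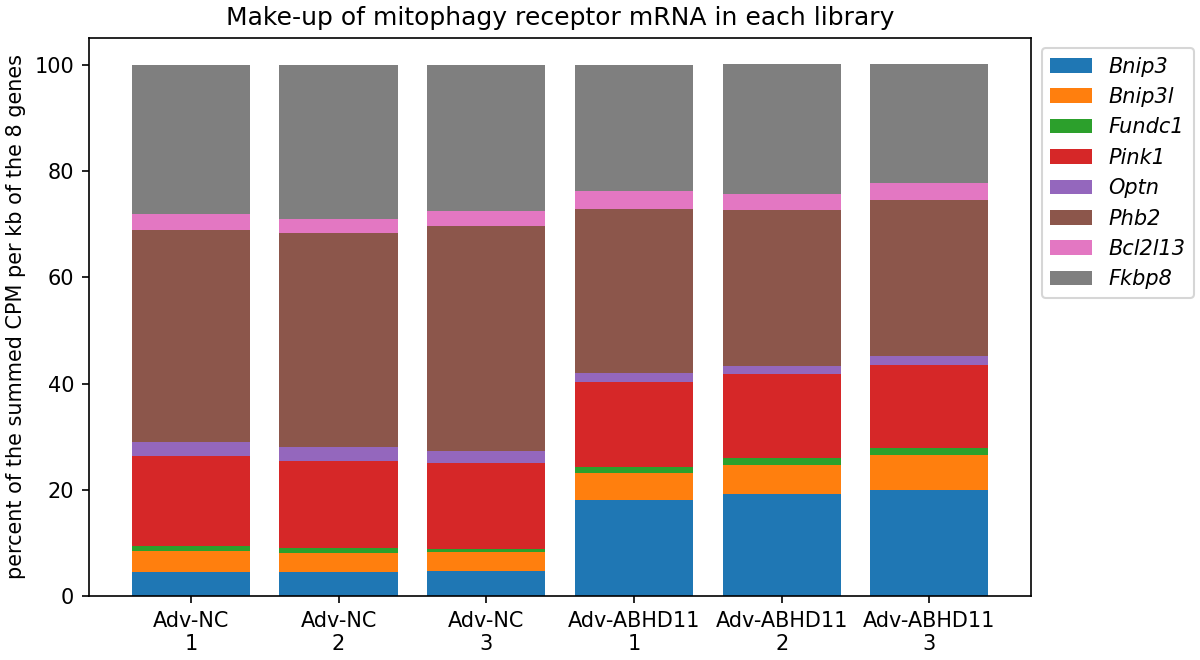
Share of each gene in the summed CPM per kb of the 8 mitophagy receptors (y axis, percent) in each library. The Bnip3 block at the base is 4.44% to 4.78% of the Adv-NC bars and 18.0% to 19.9% of the Adv-ABHD11 bars.

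The wider PINK1 pathway, a list of 27 genes that includes Pink1 and Optn, had as many higher as lower genes with TMM scaling. Of 26 tested genes 9 were higher, 9 lower and 8 did not pass, with a median log2 fold change of -0.006. Over all tested genes 29.9% were higher and 29.5% lower, so both counts are near the background. Calcoco2 had 0 counts in every library and was not tested. The ubiquitin-binding adaptor Sqstm1 (p62) had the largest change of the list, a 4.45-fold decrease from 4420 ± 362 to 994 ± 37.6 CPM (edgeR adjusted p = 1e-11). Of the other adaptors, Nbr1 rose 1.19-fold (edgeR adjusted p = 0.0279), and Tax1bp1 was at 55.5 ± 9.95 and 51.0 ± 3.36 CPM (edgeR adjusted p = 0.376).

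By adjusted p, the next genes of the list encode mitochondrial surface proteins that are ubiquitinated in this route. Rhot1, the motor adaptor Miro1, rose 1.61-fold, the fusion protein gene Mfn1 1.52-fold and the porin gene Vdac1 1.37-fold (edgeR adjusted p at most 0.000229). Tomm20, an import receptor gene and a further substrate, fell 1.27-fold (edgeR adjusted p = 0.0175). Proteases that process PINK1 were called in opposite directions. The rhomboid protease gene Parl fell 1.36-fold from 50.3 ± 3.10 to 37.0 ± 2.66 CPM, and the stress protease gene Oma1 rose 1.63-fold from 8.12 ± 0.937 to 13.2 ± 0.501 CPM (edgeR adjusted p = 0.000757 and 0.000355).

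Genes that act on the receptor proteins were 4 higher and 7 lower of 16 tested, with a median log2 fold change of -0.19. The background was 29.9% higher and 29.5% lower, or 59.3% called in all, so the share called here is near it. Src, a kinase that phosphorylates FUNDC1 and blocks its binding to LC3, fell 2.03-fold from 64.0 ± 6.49 to 31.5 ± 1.10 CPM (edgeR adjusted p = 9.25e-08). The catalytic subunit gene of casein kinase 2, Csnk2a1, whose product also phosphorylates FUNDC1, rose 1.52-fold, and Pgam5, the phosphatase that reverses it, fell 1.37-fold. Bcl2l1, whose product BCL-XL binds PGAM5, fell 1.52-fold and the phosphatase subunit gene Ppp2r5a rose 1.67-fold. Fbxl4 and Pptc7, whose products drive the turnover of BNIP3 and BNIP3L proteins, rose 1.49-fold and 1.38-fold, at 4.69 ± 0.358 and 11.9 ± 1.22 CPM with Adv-NC (edgeR adjusted p = 0.00693 and 0.00956).

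Of 10 tested genes for other proteins proposed as receptors or helpers, 4 were higher and 3 lower, again near the 29.9% and 29.5% of all tested genes. Cisd1, an outer-membrane iron-sulfur protein gene, rose 1.6-fold and the innate immune regulator Nlrx1 1.66-fold. Tbc1d17, a Rab GTPase-activating protein gene, fell 1.43-fold and the BCL2 relative Mcl1 1.41-fold (edgeR adjusted p at most 6.57e-05 for these genes). Chdh had 12 counts over the Adv-NC libraries and was not tested.

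The ATG8 genes, whose products the receptors bind, were 3 lower, 1 higher and 1 not passed, where 29.5% of all tested genes were lower and 29.9% higher. Gabarapl1 fell 2.04-fold from 185 ± 12.5 to 90.4 ± 7.50 CPM (edgeR adjusted p = 3.23e-08). Map1lc3a (LC3A) rose 1.32-fold and Map1lc3b (LC3B) fell 1.23-fold (edgeR adjusted p = 0.000849 and 0.00756), and Gabarapl2 fell 1.22-fold (edgeR adjusted p = 0.0132). With upper-quartile scaling, only 1 of the 5 was called lower. That scaling moved the median of all tested genes by 0.107 on the log2 scale, so the smaller changes given here are relative to the TMM scaling.

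**Figure D5:**
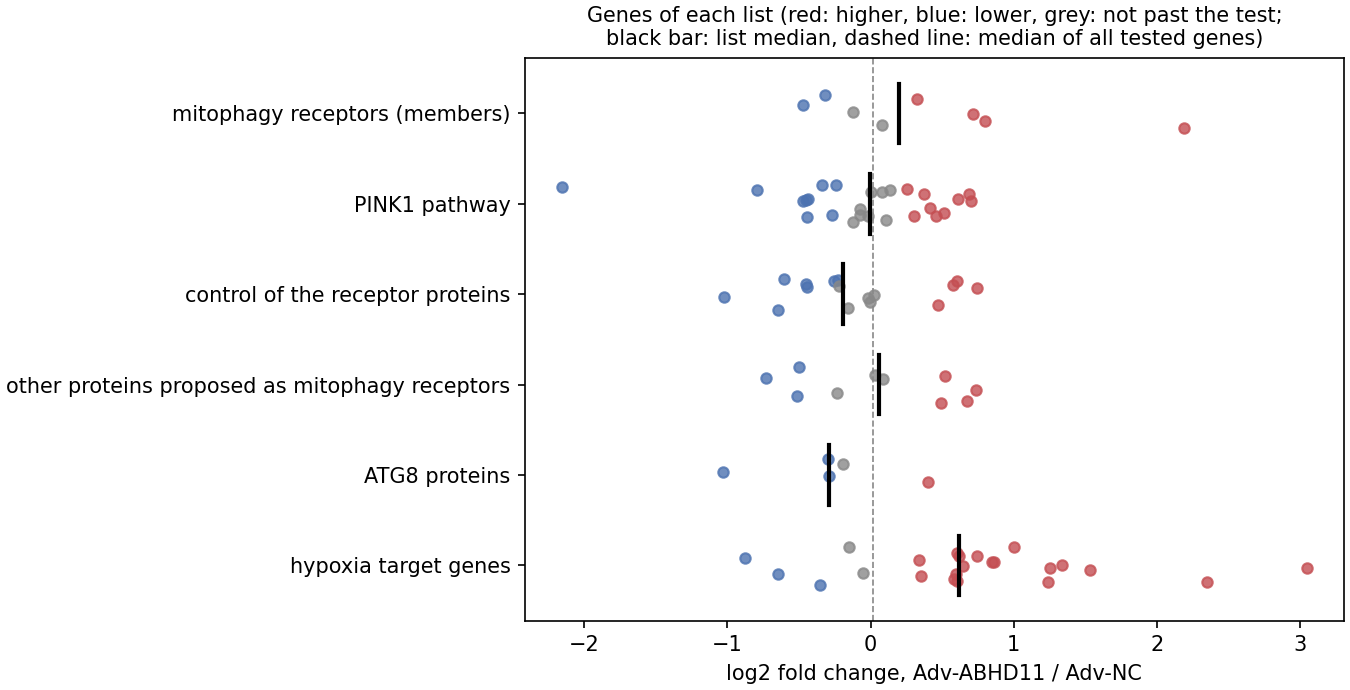
Log2 fold change of every tested gene (x axis) in each list (y axis), with the list median as a black bar and the median of all tested genes as a dashed line. The hypoxia target genes have a median of 0.621 and the PINK1 pathway -0.006, with Sqstm1 as the point at -2.15.

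Bnip3 rose in libraries in which most of a list of hypoxia target genes was also higher. Of 23 tested genes 18 were higher and 3 lower, against 29.9% and 29.5% of all tested genes, with a median log2 fold change of 0.621. Egln3, an oxygen-sensing prolyl hydroxylase gene, rose 8.25-fold, the pyruvate dehydrogenase kinase gene Pdk1 5.11-fold, the glycolytic regulator Pfkfb3 2.90-fold and Egln1 2.37-fold (edgeR adjusted p at most 2.80e-09). The list was not uniform, since Slc2a1, the glucose transporter GLUT1, fell 1.84-fold, Bhlhe40 fell 1.56-fold and Ddit4 fell 1.28-fold. Nor was such a shift particular to this list. All 14 cardiomyocyte markers were higher, with a median of 1.01, and 10 of 11 endothelial markers, with a median of 1.13. Of 8 epicardial markers 7 were lower and 1 higher. The genes with profiles most like that of Bnip3 over the 6 libraries were Gprasp2, Prnd and Selenbp1, with root mean square differences of 0.087, 0.1 and 0.109 in centred log2 CPM, among 9978 genes. Those nearest to Pink1 were Gpank1, Raly and Poldip2, at 0.018, 0.024 and 0.025, but 3462 genes lay within 0.2 of Pink1, against 33 of Bnip3. Such a distance largely restates the fold change, which on the log2 scale was 2.336 for Gprasp2, 2.255 for Prnd and 2.041 for Selenbp1. Gprasp2 was at 1.75 CPM with Adv-NC and 8.85 with Adv-ABHD11, and Prnd at 4.49 and 21.5. Both thus reached the required mean of 5 CPM only through the Adv-ABHD11 group.

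The libraries of the groups differed widely beyond these genes. Library totals ran from 16292756 to 20338700 counts, so 1 count was worth 0.0492 to 0.0614 CPM. Log2 CPM correlated across genes at 0.987 to 0.992 within and 0.926 to 0.937 between groups. Mouse Abhd11 itself stood at 33.5 ± 1.87 CPM in the control group and 38.9 ± 3.25 CPM in the Adv-ABHD11 group, which did not pass the test (edgeR adjusted p = 0.0765). The species of the transgene was not given, so its transcripts need not count there, and the labels were taken as stated. All 14 cardiomyocyte markers were detected and higher, and their sum was 18600 to 20100 CPM with Adv-NC and 34900 to 37200 CPM with Adv-ABHD11. The sum of 11 endothelial markers went from 414 to 452 CPM to 654 to 709 CPM, and that of 11 fibroblast markers from 13900 to 17200 CPM to 11000 to 14800 CPM. The fibroblast sum hides opposite changes, with 3 genes higher, 6 lower and 2 not passed. The same holds for leukocyte markers, with 2 higher, 3 lower and 4 not passed of 9 tested. Over all tested genes 29.9% were higher and 29.5% lower. Smooth muscle markers (8 genes) were at 2760 to 3300 and 4120 to 4660 CPM, epicardial markers (8 genes) at 232 to 250 and 123 to 130 CPM, and leukocyte markers (11 genes) at 74.4 to 96.0 and 72.9 to 79.9 CPM, with Cd3e at 0 counts with Adv-NC and 1 count over the other group. Lung epithelial markers (8 genes) stood at 0.054 to 0.626 and 134 to 145 CPM, with Scgb1a1, Sftpc, Sftpa1, Sftpd and Cyp2f2 at 0 counts with Adv-NC. The part of these cell types in the receptor values was not tested. Lung epithelial and red blood cell transcripts were found almost only with Adv-ABHD11. The virus and any difference in starting material thus cannot be told apart for the receptor values. In such bulk libraries, the number of cells of a type and the RNA per cell cannot be told apart either.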

How the data were processed

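Tables of 6 libraries were analysed, 3 Adv-NC and 3 Adv-ABHD11. The authors deposited expected counts per gene symbol, with no scaling to depth. The submitters' processing notes name Trimmomatic 0.39, HISAT2, RSEM, DESeq2 and build mm10, without roles. The sources used here do not give the annotation, read filters or strandedness. RSEM divides reads that fit several genes by an estimate.

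Expected counts were rounded to whole numbers, as 8.96% to 10.2% of the values above 0 were fractional. For 22 rows that repeated a symbol (0.009% of counts), the row with the most counts was kept. Genes passing filterByExpr (at least 10 counts, total of at least 15) were scaled by TMM and tested in edgeR 4.0.16 (R 4.3.3) by its quasi-likelihood F test. Benjamini-Hochberg adjustment ran over 12790 genes, with a threshold of 0.05. Intervals are 95% intervals of that fit. The standard error is the log2 fold change divided by the square root of F. Coordinates and exon lengths came from GENCODE M21 (GRCm38), and upstream sequence from RefSeq (GRCm38.p6). The members and lists were chosen with earlier results of these data known, and some listed genes are not reported here. Named are the 8 genes, up to 4 genes of a list by adjusted p with at least 1 CPM in a group, listed genes at 0 in a group, and for Bnip3 and Pink1 the 3 nearest profiles among genes with a mean of at least 5 CPM (log2 CPM with a prior count of 2). Named outside this rule, after their values were seen, were Phb, Calcoco2, Nbr1, Tax1bp1, Tomm20, Parl, Oma1, Pgam5, Fbxl4, Pptc7, Chdh, Slc2a1, Bhlhe40 and Ddit4, and Bid and Kxd1 as overlapping genes. Alternatives were library size only, upper-quartile scaling, DESeq2 1.42.0, no filter, a replicate block and leaving out each library. In data simulated for this comparison with 12790 genes, the procedure found 35 of the 50 altered 1.5-fold, 45 of the 50 altered 2-fold, 49 of the 50 altered 4-fold and 48 of the 50 altered 8-fold. Of its 187 calls, 10 were false. Far fewer genes were altered in the simulation than the 59.3% called here, so these rates need not hold for the data.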

Additional observations from a re-analysis of the deposited data

How the results depend on the processing

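Under the 11 alternatives run, the 4 higher and 2 lower calls among the receptors were each kept, and Pink1 and Fkbp8 did not pass in any of them. The fold of Bnip3 ran from 4.37 to 4.90, of Bnip3l from 1.65 to 1.87, of Fundc1 from 1.49 to 1.80, of Bcl2l13 from 1.24 to 1.35, of Phb2 from 0.778 to 0.866 and of Optn from 0.709 to 0.778. The adjusted p of Phb2 came closest to the threshold, at 0.0440. Pink1 ran from 1.02 to 1.14 (adjusted p from 0.0678 to 0.817) and Fkbp8 from 0.872 to 0.989. Over all tested genes, upper-quartile scaling gave 4571 higher and 3091 lower, against 3821 and 3768, so that 59.7% of calls were higher against 50.3%. Of the list counts, that of the lower ATG8 genes moved by more than 1.5 times, from 3 to 1 with upper-quartile scaling. With that scaling the PINK1 pathway list had 10 higher and 6 lower genes, against 9 and 9. Leaving out a library gave 3235 to 3934 higher and 3321 to 3704 lower genes. The main fit did not pair samples by replicate number. Same-numbered libraries correlated at 0.010, 0.204 and -0.104 in their deviations from the group means. Not every library correlated best with its own number. With deviations taken from the mean of 3 libraries, these correlations cannot decide whether replicates shared a culture. The replicate block gave 3932 higher and 3906 lower genes and changed no receptor call.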
